A study of Mus musculus with 9 samples.

Results

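The genes described here are 7 that make, break or sense steroid hormones, out of 20655 genes with a row in the deposited tables. They were chosen by name and not by their values: the enzymes Akr1c18, Akr1c14 and Hsd11b1, and the receptors Nr3c1, Nr3c2, Esr1 and Pgr. The study sorted 3 populations of stromal cells from white fat under the skin (inguinal and axillary) of C57BL/6 mice aged 12 days, males and females mixed, and sequenced the messenger RNA of 3 libraries of each, 9 in all. DPP4+ cells carry a membrane peptidase, ICAM1+ cells an adhesion molecule, and CD142+ cells tissue factor, the protein made by F3. No genetic change or treatment separated the groups, so the surface protein used for sorting was the only difference between them that the labels give. The labels do not say how many animals gave cells to a library or whether the replicate libraries are different animals, so the p-values reflect library-to-library spread that may be only technical.

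Steroid hormones reach fat from the blood, and the enzymes inside a cell decide how much active hormone its receptors meet. Akr1c18 encodes 20α-hydroxysteroid dehydrogenase, which converts progesterone into a product that activates the progesterone receptor poorly, and Akr1c14 encodes a 3α-hydroxysteroid dehydrogenase, which acts on dihydro derivatives of androgens and progesterone. Hsd11b1 does the reverse kind of work for glucocorticoids, since it regenerates active corticosterone from its inert 11-keto form, while Hsd11b2 carries out the inactivation. Nr3c1 encodes the glucocorticoid receptor and Nr3c2 the mineralocorticoid receptor, which both bind corticosterone. Esr1 encodes oestrogen receptor alpha and Pgr the progesterone receptor, and all 4 receptors are transcription factors that act in the nucleus once hormone is bound. Glucocorticoids are known in fat for their part in the formation of fat cells.

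Akr1c18 and Akr1c14 lie in the same gene cluster and both stood highest in DPP4+ cells, so the stretches just before their start sites are shown first. They are the bases before the RefSeq start in GRCm38.p6, the assembly also called mm10, written 5′ to 3′ on the strand of the gene, without the bases that GENCODE M21 places in an exon. The stretch for Akr1c18 covers chr13:4150655-4150896 on the minus strand (242 bases), and that for Akr1c14 chr13:4059341-4059540 on the plus strand (200 bases). Capitals mark a match to a motif that was searched.
Akr1c18: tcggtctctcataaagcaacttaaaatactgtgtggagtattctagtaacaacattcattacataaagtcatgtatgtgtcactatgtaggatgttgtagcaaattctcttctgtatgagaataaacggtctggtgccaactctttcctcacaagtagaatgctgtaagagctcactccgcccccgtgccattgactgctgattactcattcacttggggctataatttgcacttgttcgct
Akr1c14: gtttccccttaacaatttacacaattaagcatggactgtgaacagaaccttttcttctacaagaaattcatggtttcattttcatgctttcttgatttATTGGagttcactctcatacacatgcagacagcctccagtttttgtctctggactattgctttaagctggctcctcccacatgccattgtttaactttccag
The 250 bases before the start of every RefSeq promoter were searched on both strands for 6 motifs. These were the TATA box (TATAAA, in 12.4% of 32851 promoters), the CCAAT box (CCAAT, 33.8%) and a STAT site (TTCNNNGAA, 7.02%). The steroid receptor motifs were the glucocorticoid and progesterone receptor site as a palindrome (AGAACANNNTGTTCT, 0.00913%), a single arm of it (TGTTCT, 16.1%), which every such palindrome contains, and the oestrogen receptor palindrome (GGTCANNNTGACC, 0.0639%). The Akr1c18 window held none of the 6, and the Akr1c14 window held a CCAAT box on the opposite strand, beginning 152 bases before the start. Promoters were matched for 6 of the 7 genes, in 7 windows because Esr1 has 2. None of these 7 windows held a steroid receptor motif by these letters. GENCODE M21 places all 250 bases of the Hsd11b1 window and of the more 5′ Esr1 window in an exon. Among the other 4 genes with a window, Hsd11b1 had a CCAAT box 72 bases before the start. Nr3c2 had 3, of which the one 12 bases before the start was on the opposite strand. Pgr had a CCAAT box 67 bases and a TATA box 212 bases before the start, both on the opposite strand. Esr1 had a CCAAT box in the window of its more 5′ start and a STAT site in the other.

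The sort genes followed the population names in level, with an exception for Icam1. Fitted levels, in normalised counts, were 5466 in DPP4+ cells, 729 in CD142+ cells and 89.9 in ICAM1+ cells for Dpp4, and 243, 1469 and 310 for F3. For Icam1 they were 1162, 7058 and 7966, and ICAM1+ and CD142+ cells did not differ past the threshold (adjusted p = 0.631). A fitted level is what the deposited mean over the 9 libraries and the deposited fold changes imply for a population, and it has no error of its own. Values per library were not used here, and the depth of each library is not known. The summed mean over all genes was 9024650 normalised counts. Of 6 stromal markers 1 was higher (Pdgfra) and 4 lower (Apod, Dcn, Col1a1 and Col1a2) in ICAM1+ than in DPP4+ cells. The summed levels of the 6 were 983800 in DPP4+ cells, 1052590 in CD142+ cells and 605557 in ICAM1+ cells. Pdgfra, the exception in this list, had 2849, 4432 and 3664 normalised counts in that order.

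Akr1c18 was the gene most set apart. In DPP4+ cells its fitted level was 5661 normalised counts, in CD142+ cells 88.0 and in ICAM1+ cells 12.6, so DPP4+ cells stood far above both other populations. Relative to DPP4+ cells the level was 451-fold lower in ICAM1+ cells (95% Wald interval 241 to 844) and 64.4-fold lower in CD142+ cells (37.2 to 111). As log2 fold changes in the authors' deposited tables these were -8.82 ± 0.46 (SE, adjusted p = 5.74e-79) and -6.01 ± 0.40 (adjusted p = 4.24e-48). ICAM1+ cells were also lower than CD142+ cells, at -2.81 ± 0.47 (adjusted p = 1.41e-07), which is 7.01-fold (3.71 to 13.2). All adjusted p-values in this text are those of the deposited Wald test, adjusted over the genes to which the deposited table gives an adjusted p (17851 of 20655 when ICAM1+ and 17450 when CD142+ cells were set against DPP4+ cells, and 15848 for ICAM1+ against CD142+). Among the 7952 genes with a mean of at least 100, Akr1c18 had the lowest fold change for ICAM1+ against DPP4+ cells and ranked 2 from the lowest for CD142+ against DPP4+. In DPP4+ cells its level ranked 157 of 20655 genes, in CD142+ cells 8298 and in ICAM1+ cells 13713. Since these are bulk libraries, fewer cells with the transcript and less transcript per cell cannot be told apart. The 3 comparisons share libraries and are not independent of each other.

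Akr1c14 showed the same order with smaller steps. Its fitted level was 1815 normalised counts in DPP4+ cells, 284 in CD142+ cells and 108 in ICAM1+ cells, and every neighbouring pair in that order differed past the threshold. The log2 fold change was -4.07 ± 0.15 for ICAM1+ against DPP4+ (adjusted p = 2.19e-157) and -2.68 ± 0.13 for CD142+ against DPP4+ (adjusted p = 3.67e-85). Between ICAM1+ and CD142+ cells it was -1.39 ± 0.16 (adjusted p = 1.94e-16). In fold terms Akr1c14 was 16.7-fold lower in ICAM1+ than in DPP4+ cells (13.7 to 20.6) and 6.40-fold lower in CD142+ than in DPP4+ cells (5.33 to 7.68). Compared per kilobase of exon, Akr1c18 was 8.37 times the level of Akr1c14 in DPP4+ cells, 0.832 times in CD142+ cells and 0.311 times in ICAM1+ cells. Akr1c18 was thus above Akr1c14 in DPP4+ cells and below it in the other populations on that scale. About 5.80% of the 50-base stretches of Akr1c14 transcripts also occur in Gm18857, which overlaps 7.22% of its exon bases on the same strand, so that part of its count is uncertain. For Akr1c18 the shared part was 0.581%, all with Akr1cl.

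**Figure D1:**
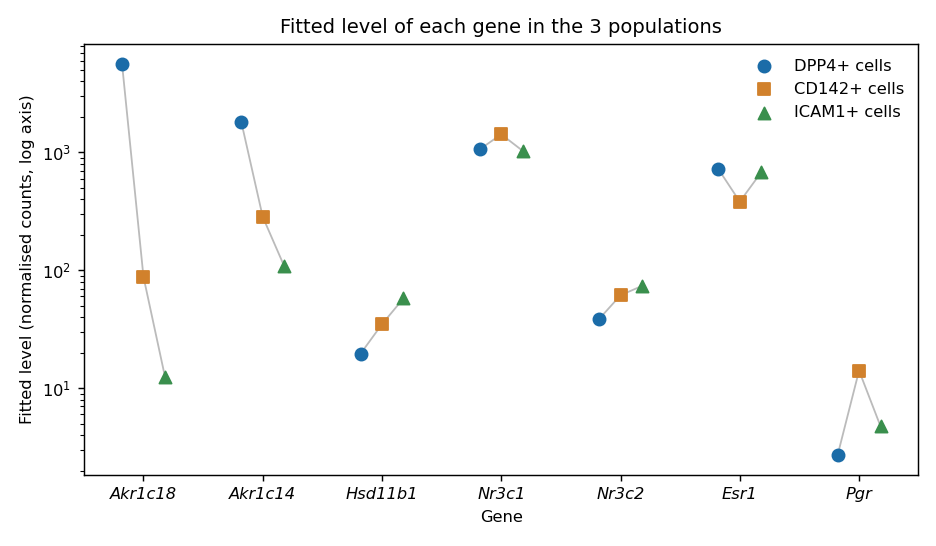
Fitted level of each of the 7 genes (log y axis, normalised counts, not corrected for gene length) in DPP4+, CD142+ and ICAM1+ cells, 1 point per population with no error. Akr1c18 spans from 5661 in DPP4+ to 12.6 in ICAM1+ cells, while Nr3c1 stays between 1029 and 1421.

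The Akr1c cluster on chromosome 13 runs from 4049011 to 4586541 in GRCm38 (537.5 kb) and holds 8 coding Akr1c genes and 0 other coding genes. Akr1c18 (ENSMUSG00000021214.14) occupies 4132615 to 4150654 on the minus strand. Akr1c14 (ENSMUSG00000033715.15) occupies 4049011 to 4090688 on the plus strand, and the annotated starts of the pair are 101.6 kb apart. Of the other 6 genes, Akr1c13 and Akr1c19 had rows and Akr1c12, Akr1c6, Akr1c20 and Akr1c21 had none. Akr1c13, the nearest measured neighbour of Akr1c18, had a mean of 1.59 normalised counts and no adjusted p. Akr1c19 had a mean of 8.10, and its log2 fold changes were -0.10 ± 0.78 (adjusted p = 0.956) for ICAM1+ and 0.74 ± 0.74 (adjusted p = 0.606) for CD142+ against DPP4+ cells. The changes of Akr1c14 lay outside the intervals of Akr1c19 (-1.63 to 1.43 and -0.71 to 2.19), while for Akr1c13 the interval in CD142+ against DPP4+ cells (-7.09 to 1.21) held the value of Akr1c14.

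**Figure D2:**
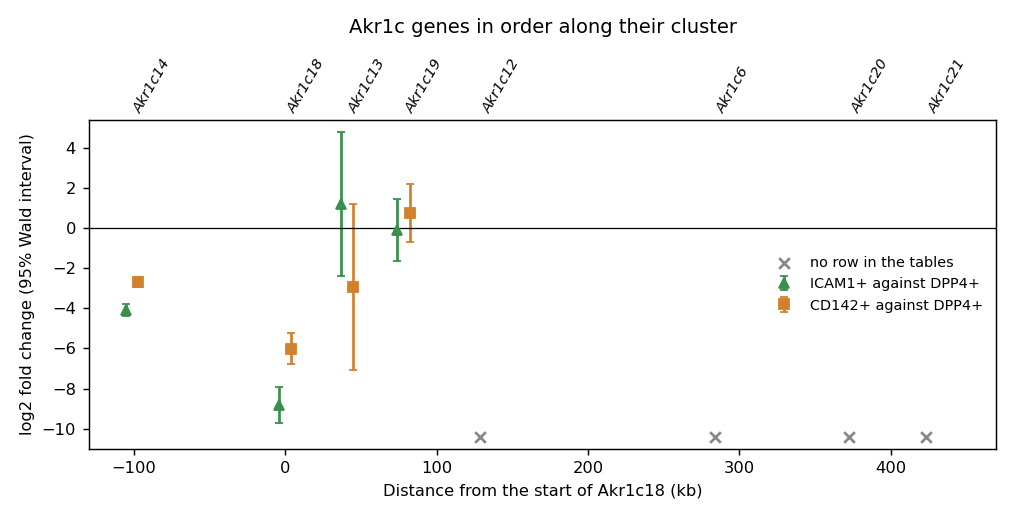
Log2 fold changes of the Akr1c genes (y axis, bars are 95% Wald intervals) against the distance of their start from that of Akr1c18 (x axis, kb). Triangles are ICAM1+ and squares CD142+ against DPP4+ cells, and crosses at the bottom mark 4 genes with no row. Akr1c14 and Akr1c18 lie far below 0 while the intervals of Akr1c13 and Akr1c19 span it.

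Hsd11b1 ran the other way. Its fitted level was 19.6 normalised counts in DPP4+ cells, 34.9 in CD142+ cells and 57.8 in ICAM1+ cells, so DPP4+ cells were lowest. Against DPP4+ cells it was higher in ICAM1+ cells by 1.56 ± 0.42 on the log2 scale (adjusted p = 0.00161), or 2.95-fold (1.66 to 5.24). CD142+ cells lay between the others and did not differ past the threshold from either, at 0.83 ± 0.43 against DPP4+ (adjusted p = 0.188) and with ICAM1+ against CD142+ at 0.73 ± 0.40 (adjusted p = 0.321). The intervals of these differences were -0.01 to 1.67 and -0.05 to 1.50. Hsd11b1 (ENSMUSG00000016194.14) lies on the minus strand of chromosome 1 from 193221634 to 193264075, and none of its 50-base stretches occurs in another gene.

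The partner and the opponent of Hsd11b1 were also higher in ICAM1+ than in DPP4+ cells. H6pd, which supplies the NADPH that Hsd11b1 uses, was higher than in DPP4+ cells in ICAM1+ (0.59 ± 0.15, adjusted p = 0.000823) and CD142+ cells (0.77 ± 0.15, adjusted p = 5.42e-06). Hsd11b2, the opposing enzyme, had fitted levels of 45.1 in DPP4+ cells, 50.5 in CD142+ cells and 155 in ICAM1+ cells. It was higher in ICAM1+ than in DPP4+ cells (1.78 ± 0.30, adjusted p = 2.96e-08) and than in CD142+ cells (1.62 ± 0.29, adjusted p = 1.2e-06). Per kilobase of exon, Hsd11b2 was 5.32 times the level of Hsd11b1 in DPP4+, 3.35 times in CD142+ cells and 6.20 times in ICAM1+ cells. Transcripts of the inactivating enzyme were thus above those of the regenerating enzyme in each population by fitted level.

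Transcripts of the glucocorticoid receptor differed little. Fitted levels of Nr3c1 were 1062 normalised counts in DPP4+, 1029 in ICAM1+ and 1421 in CD142+ cells. CD142+ cells were higher than DPP4+ cells by 0.42 ± 0.13 on the log2 scale (adjusted p = 0.00743), or 1.34-fold (1.12 to 1.59). ICAM1+ cells were lower than CD142+ cells, at -0.47 ± 0.13 (adjusted p = 0.00524), or 1.38-fold (1.16 to 1.64). Between ICAM1+ and DPP4+ cells the difference was -0.05 ± 0.13 (adjusted p = 0.859), with an interval of -0.30 to 0.21. Nr3c1 (ENSMUSG00000024431.14) lies on the minus strand of chromosome 18, from 39410545 to 39519421.

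The mineralocorticoid receptor was scarcer and moved in the direction of Hsd11b1. Nr3c2 had fitted levels of 38.6 normalised counts in DPP4+ cells, 61.4 in CD142+ cells and 73.6 in ICAM1+ cells. It was higher in ICAM1+ than in DPP4+ cells by 0.93 ± 0.30 on the log2 scale (adjusted p = 0.0111), or 1.91-fold (1.27 to 2.88). The steps from DPP4+ to CD142+ (0.67 ± 0.30, adjusted p = 0.113) and from CD142+ to ICAM1+ cells (0.26 ± 0.29, adjusted p = 0.740) did not pass. Per kilobase of exon, Nr3c1 was 23.2 times the level of Nr3c2 in DPP4+, 19.5 times in CD142+ cells and 11.8 times in ICAM1+ cells. Nr3c2 (ENSMUSG00000031618.13) lies on the plus strand of chromosome 8 from 76899442 to 77245012. Gm10649 on the other strand overlaps 3.82% of its exon bases, and its reads cannot be told apart there without strand information.

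The oestrogen receptor was lowest in CD142+ cells. Esr1 had fitted levels of 722 normalised counts in DPP4+, 678 in ICAM1+ and 382 in CD142+ cells. It was lower in CD142+ than in DPP4+ cells by -0.92 ± 0.16 on the log2 scale (adjusted p = 2.76e-07), or 1.89-fold (1.52 to 2.36). It was higher in ICAM1+ than in CD142+ cells by 0.83 ± 0.16 (adjusted p = 1.57e-05), or 1.78-fold (1.42 to 2.21). DPP4+ and ICAM1+ cells did not differ past the threshold (-0.09 ± 0.16, adjusted p = 0.758, interval -0.41 to 0.22). Nr3c1 and Esr1 thus had their extreme in the same population but in opposite directions, and per kilobase of exon Nr3c1 was 2.61 times the level of Esr1 in DPP4+, 6.61 times in CD142+ cells and 2.70 times in ICAM1+ cells. Esr1 (ENSMUSG00000019768.16) lies on the plus strand of chromosome 10 from 4611593 to 5005614.

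The progesterone receptor had the lowest mean of the 7 genes. Pgr had fitted levels of 2.70 normalised counts in DPP4+ cells, 14.1 in CD142+ cells and 4.76 in ICAM1+ cells, with a mean of 7.18. None of its 3 comparisons passed, the nearest being CD142+ against DPP4+ at 2.38 ± 0.94 on the log2 scale (adjusted p = 0.0588, interval 0.53 to 4.23). ICAM1+ against DPP4+ gave 0.81 ± 1.001 (adjusted p = 0.634) and ICAM1+ against CD142+ -1.57 ± 0.88 (adjusted p = 0.345). The interval for CD142+ against DPP4+ cells lies above 0 before adjustment, and those of the others (-1.15 to 2.78 and -3.29 to 0.16) include 0. Pgr (ENSMUSG00000031870.16) lies on the plus strand of chromosome 9 from 8899833 to 8968611.

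**Figure D3:**
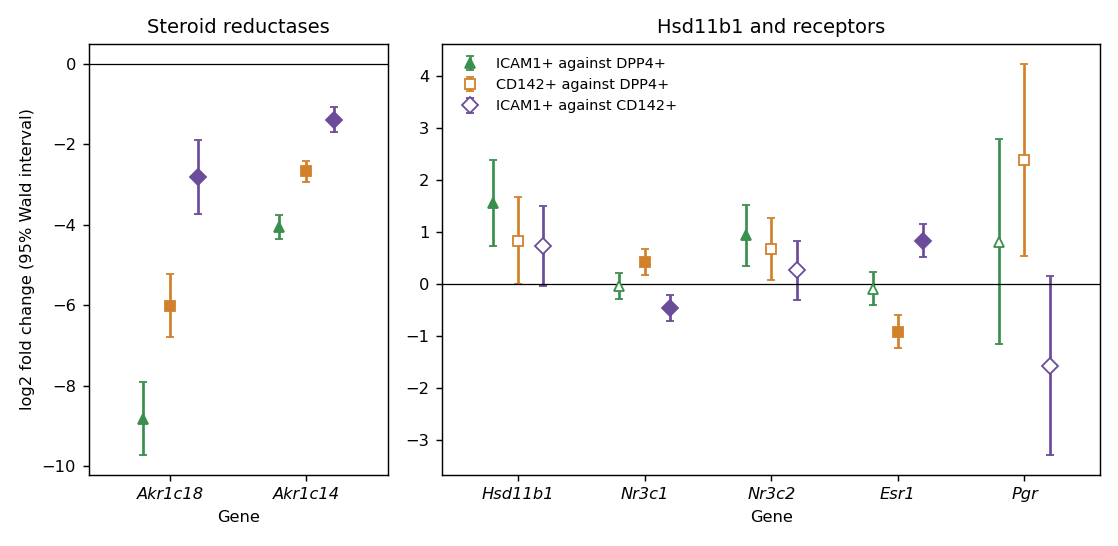
Log2 fold change (y axis, bars are 95% Wald intervals) of each gene in the 3 comparisons, which share libraries. Filled symbols passed an adjusted p of 0.05 and open symbols did not. Akr1c18 and Akr1c14 lie below 0 in all 3, Hsd11b1 and Nr3c2 passed only for ICAM1+ against DPP4+, and no comparison of Pgr passed.

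Counted over the 7 genes, each comparison had 4 calls. For ICAM1+ against DPP4+ cells 2 were higher (Hsd11b1 and Nr3c2) and 2 lower (Akr1c18 and Akr1c14), beside 24.4% of all 17851 genes tested that were called, 12.4% higher and 12.0% lower. For CD142+ against DPP4+ cells 1 was higher (Nr3c1) and 3 lower (Akr1c18, Akr1c14 and Esr1), beside 19.0% of 17450 genes, 10.1% higher and 8.91% lower. For ICAM1+ against CD142+ cells 1 was higher (Esr1) and 3 lower (Akr1c18, Akr1c14 and Nr3c1), beside 9.05% of 15848 genes, 3.77% higher and 5.28% lower. The median log2 fold change of the 7 was -0.05, 0.42 and -0.47 in that order, beside 0.04, 0.00 and 0.02 over all genes. All 7 had an adjusted p in every comparison.

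Markers of mural, Schwann, endothelial, adipocyte and epithelial cells were called higher in ICAM1+ than in DPP4+ cells more often than lower. Hsd11b1 and Nr3c2 were also higher there. Of 8 mural markers 5 were higher and 1 lower than in DPP4+ cells, and their summed level was 1948 in DPP4+ cells, 4596 in CD142+ cells and 9179 in ICAM1+ cells. All 5 Schwann cell markers were higher, with sums of 879, 811 and 2122, and 5 of 7 endothelial markers, with sums of 2574, 2475 and 3884. Of 6 adipocyte markers 4 had an adjusted p and 3 were higher, with sums of 23.3, 103 and 270. Adipoq went from 1.07 in DPP4+ to 95.2 in ICAM1+ cells. Of 7 epithelial markers 4 were higher and 1 lower, with sums of 151, 111 and 154. Of 9 immune markers 6 had an adjusted p and 0 passed (sums 91.1, 106 and 154), with a median log2 fold change of 0.99. Of 4 mesothelial markers 3 had an adjusted p and 0 passed (13.4, 17.5 and 8.66). All 4 skeletal muscle markers had an adjusted p and 0 passed (63.4, 53.5 and 60.7). Beside these counts and that of the stromal markers, 12.4% of all genes tested were higher and 12.0% lower. The part of these cells in the higher levels of Hsd11b1, Hsd11b2 and Nr3c2 was not tested. The part of these cells in the levels of Akr1c18 and Akr1c14, which were highest in DPP4+ cells, was not tested either.

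The wider pathway was read from 8 gene lists. Genes without an adjusted p could not be called. The counts stand beside the 24.4%, 19.0% and 9.05% of all genes tested that were called. These shares are for ICAM1+ and for CD142+ against DPP4+ cells, and for ICAM1+ against CD142+ cells. Abundant genes were called more often. Of the 7952 genes with a mean of at least 100, 3169, 2443 and 1188 were called in that order, with p adjusted over them. Of the steroid reductases, 7 of 13 had rows and 6 of these an adjusted p against DPP4+ cells, and 3 were lower and 0 higher in ICAM1+ as in CD142+ cells against DPP4+ cells. The third gene beside Akr1c18 and Akr1c14 was Srd5a1, a steroid 5α-reductase named for this count, with -1.36 ± 0.53 (adjusted p = 0.0413) and -1.37 ± 0.52 (adjusted p = 0.0424). Gm17108 overlaps 16.4% of the exon bases of Srd5a1 on the same strand. The list's median was -0.27 and -1.37, beside 0.04 and 0.00 over all genes. The list includes Akr1c18 and Akr1c14, and these medians are the values of Srd5a3 and of Srd5a1 itself. Between ICAM1+ and CD142+ cells 2 were lower and 0 higher, with a median of -0.84 beside 0.02, and Srd5a1 had 0.01 ± 0.55. The -0.84 is the value of Akr1c19, whose mean was 8.10. Akr1cl had a mean of 4.42 and did not pass.

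Of the 12 measured hydroxysteroid dehydrogenases, 11 had an adjusted p against DPP4+ cells. Of these 3 were higher and 0 lower in ICAM1+ against DPP4+ cells, namely Hsd11b1, Hsd11b2 and H6pd, near the 24.4% called over all genes, with a median of 0.43 over the list beside 0.04 over all genes. In CD142+ against DPP4+ cells 2 were higher and 0 lower, H6pd and Hsd17b14 (2.67 ± 0.92, adjusted p = 0.0228), near the 19.0% over all genes, with a median of 0.11 beside 0.00. Only Hsd11b2 passed for ICAM1+ against CD142+ cells, and the median was 0.11. Hsd17b11, the most abundant after H6pd, had -0.37 ± 0.15 (adjusted p = 0.0578) in ICAM1+ cells. Of 9 genes of steroid synthesis, 7 with an adjusted p, 2 were higher and 0 lower in both comparisons against DPP4+ cells. This stands beside 24.4% and 19.0% of all genes called, and the medians were 0.22 and 0.49 beside 0.04 and 0.00. In ICAM1+ against CD142+ cells 1 was higher, beside 9.05% of all genes called. The pair called against DPP4+ cells were Por and Fdxr, which pass electrons to cytochrome P450 enzymes. Por, the partner of the microsomal enzymes, was higher by 1.68 ± 0.14 in ICAM1+ (adjusted p = 1.03e-29) and by 0.76 ± 0.14 in CD142+ cells (adjusted p = 2.1e-06). Fdxr, which serves the mitochondrial enzymes, was higher by 1.98 ± 0.31 (adjusted p = 3.3e-09) and 1.47 ± 0.31 (adjusted p = 3.07e-05). The side-chain cleavage enzyme Cyp11a1 had a mean of 1.47 and Cyp17a1 of 1.63, with no adjusted p, and Cyp19a1, the aromatase, had no row.

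Among 7 measured genes of steroid sulfation and transport, 2 were higher and 1 lower in ICAM1+ cells and 3 higher and 1 lower in CD142+ cells, against DPP4+, with medians of 0.09 and 0.27 beside 0.04 and 0.00 over all genes. An adjusted p was given for 6 of the 7, and 24.4% and 19.0% of all genes were called. Slc10a6 alone passed for ICAM1+ against CD142+ cells, and it was lower. Slc10a6, a carrier of sulfated steroids, was higher by 1.59 ± 0.23 in ICAM1+ (adjusted p = 4.55e-11) and by 2.63 ± 0.22 in CD142+ cells (adjusted p = 2.66e-31). Slco2b1, an organic anion transporter that takes up steroid sulfates, was higher by 2.03 ± 0.27 (adjusted p = 2.82e-12) and 2.23 ± 0.27 (adjusted p = 7.28e-15). Papss1, which makes the sulfate donor, was lower by -0.60 ± 0.14 (adjusted p = 0.000244) and -0.42 ± 0.14 (adjusted p = 0.0201).

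Of 12 measured receptors, 11 with an adjusted p, 2 were higher (Nr3c2 and Gper1) and 1 lower (Paqr9) in ICAM1+ against DPP4+ cells, with a list median of 0.16. CD142+ against DPP4+ cells had Nr3c1 and Paqr6 higher and Esr1 and Paqr9 lower, with a median of 0.37. For ICAM1+ against CD142+ cells Esr1 was higher and Nr3c1 and Paqr6 lower, with a median of 0.02. Over all genes 24.4%, 19.0% and 9.05% were called in these comparisons, with medians of 0.04, 0.00 and 0.02. The receptor count in ICAM1+ against DPP4+ cells is near that over all genes. Paqr6 and Paqr9, membrane progestin receptors named after their values were seen, went in opposite directions in CD142+ against DPP4+ cells. Paqr6 had 2.82 ± 0.48 (adjusted p = 9.63e-08) and Paqr9 -2.52 ± 0.41 (adjusted p = 2.26e-08). In ICAM1+ against DPP4+ cells Paqr9 was also lower (-2.36 ± 0.42, adjusted p = 2.52e-07), while Paqr6 had 0.58 ± 0.52 (adjusted p = 0.480). Paqr6 was lower in ICAM1+ than in CD142+ cells, at -2.23 ± 0.46 (adjusted p = 4e-05). Gper1, a membrane oestrogen receptor named likewise, had 1.92 ± 0.58 in ICAM1+ against DPP4+ cells (adjusted p = 0.00586). Pgrmc1 did not pass (0.12 ± 0.12, adjusted p = 0.571, in ICAM1+ against DPP4+ cells).

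Receptor chaperones and coregulators were all measured (19 genes), with 6 higher and 2 lower in ICAM1+ and 2 higher and 2 lower in CD142+ cells against DPP4+ cells, and medians of 0.20 and 0.10 beside 0.04 and 0.00 over all genes. All 19 had an adjusted p and a mean of at least 100. Over all genes 12.4% were higher and 12.0% lower in ICAM1+ and 10.1% higher and 8.91% lower in CD142+ cells. Of the 7952 genes with such a mean, 3169 were called in ICAM1+ and 2443 in CD142+ cells, with p adjusted over them. The count in CD142+ cells is near that over all genes, and the count in ICAM1+ cells is near that over these abundant genes. For ICAM1+ against CD142+ cells 1 was lower (Bag1) and 0 higher. Bag1, a cochaperone of HSP70, was lower by -1.48 ± 0.13 in ICAM1+ (adjusted p = 3.29e-27) and by -1.09 ± 0.13 in CD142+ cells (adjusted p = 2.23e-15). Hsp90aa1, the chaperone that holds unbound steroid receptors ready for hormone, was higher by 0.59 ± 0.14 (adjusted p = 0.000151) and 0.60 ± 0.14 (adjusted p = 0.000161). In ICAM1+ cells the corepressor Nrip1 was higher than in DPP4+ cells (0.64 ± 0.19, adjusted p = 0.00352) and the demethylase Kdm1a lower (-0.46 ± 0.14, adjusted p = 0.00467).

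Genes known to respond to glucocorticoids were called in both directions. Of 18, 4 were higher and 2 lower in ICAM1+ and 6 higher and 2 lower in CD142+ cells against DPP4+ cells, with medians of 0.13 and 0.29 beside 0.04 and 0.00 over all genes. Called in either direction were 6 and 8 of the 18, beside 24.4% and 19.0% of all genes. Between ICAM1+ and CD142+ cells 1 was higher (Sgk1) and 2 lower (Dusp1 and Cebpd), with a median of -0.05. The kinase Sgk1 had 1.09 ± 0.13 (adjusted p = 1.49e-15) in ICAM1+ and 0.61 ± 0.13 (adjusted p = 3.73e-05) in CD142+ cells, and Angptl4, an inhibitor of lipoprotein lipase, 1.09 ± 0.16 (adjusted p = 4.56e-11) and 0.80 ± 0.16 (adjusted p = 4.32e-06). Errfi1, a brake on the EGF receptor, had -0.75 ± 0.12 (adjusted p = 1.63e-09) and -0.54 ± 0.11 (adjusted p = 4.09e-05). The phosphatase Dusp1 and the transcription factor Cebpd were higher in CD142+ than in DPP4+ cells (0.51 ± 0.14 and 0.46 ± 0.13). Both were lower in ICAM1+ than in CD142+ cells (-0.64 ± 0.15 and -0.65 ± 0.13), while Sgk1 was higher in ICAM1+ cells. A link of these genes to the level of Nr3c1 was not tested. Fkbp5 and Tsc22d3, often used as readouts of the receptor and named for that after their values were seen, passed in none of the 3 comparisons. Their values for CD142+ against DPP4+ cells were 0.29 ± 0.29 (adjusted p = 0.612) and 0.23 ± 0.17 (adjusted p = 0.440). Tsc22d3 had -0.41 ± 0.17 (adjusted p = 0.122) for ICAM1+ against CD142+ cells. Other genes of the list did pass against DPP4+ cells. Among them were Per1 in CD142+ (0.32 ± 0.12, adjusted p = 0.0487) and Klf9 in ICAM1+ cells (0.39 ± 0.13, adjusted p = 0.0163).

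Of 13 measured oestrogen and progesterone target genes, 4 were higher and 0 lower in ICAM1+ and in CD142+ cells against DPP4+ cells. Of the 13, 10 had an adjusted p, and 12.4% and 10.1% of all genes were called higher. The medians were 0.81 and 1.03 beside 0.04 and 0.00, the list includes Pgr, and the 0.81 is the value of Pgr itself. The calls were Cxcl12, Igf1, Stc1 and Wnt4 in each case. No gene of the list passed between ICAM1+ and CD142+ cells. A link of these genes to the level of Esr1 or Pgr was not tested. Cxcl12, a chemokine, had 1.13 ± 0.14 (adjusted p = 1.23e-14) and 1.03 ± 0.14 (adjusted p = 2.81e-12), and the growth factor Igf1 0.82 ± 0.14 (adjusted p = 5.66e-08) and 0.84 ± 0.14 (adjusted p = 3.03e-08). Stc1, a secreted glycoprotein, had 1.35 ± 0.26 (adjusted p = 1.48e-06) and 1.67 ± 0.25 (adjusted p = 7.72e-10), and the ligand Wnt4, at a mean of 17.4, had 3.504 ± 0.83 (adjusted p = 0.000237) and 3.83 ± 0.83 (adjusted p = 4.52e-05). The classical oestrogen target Greb1 had a mean of 1.37 and no adjusted p. Leaving the 7 genes out, the 8 lists held 89 measured genes, of which 80 had an adjusted p in the comparisons with DPP4+ cells, with 21 higher and 7 lower in ICAM1+ and 20 higher and 7 lower in CD142+ cells against DPP4+ cells. Between ICAM1+ and CD142+ cells 3 were higher and 5 lower of 77 with an adjusted p. Over all genes 12.4% were higher and 12.0% lower in ICAM1+ and 10.1% and 8.91% in CD142+ cells against DPP4+ cells, and 3.77% and 5.28% between ICAM1+ and CD142+ cells.

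Few genes had changes of nearly the same size as those of Akr1c18 or Akr1c14. Likeness was the distance between genes in the plane of the log2 fold changes of ICAM1+ and CD142+ against DPP4+ cells, among genes whose mean reached 100. Only Krtdap came within 0.5 of Akr1c18, at a distance of 0.19, followed by Wnt10b at 1.41 and Bmp7 at 1.96. Within 0.5 of Akr1c14 there were 6 genes, and the nearest were Lurap1l (0.11), Cadm3 (0.11) and Anxa3 (0.33). Around the smaller changes, 2436 genes lay within 0.5 of Nr3c1, 598 of Nr3c2, 170 of Esr1 and 122 of Hsd11b1. A fixed distance holds fewer genes around large changes than near 0, so these counts largely follow the size of the change. Being called lower than in DPP4+ cells was common, at 2139 genes in ICAM1+ and 1554 in CD142+ cells. The nearest were Tmem110, Ptpdc1 and Castor2 for Nr3c1, Lmna, Ctnnal1 and Cmtm4 for Nr3c2, Cpne2, Col6a6 and Col8a1 for Esr1, and Parp14, Frmd4a and Cyp51 for Hsd11b1. Pgr had 9 such genes, led by Ralgps2, Meox2 and Arhgdib, but its own standard errors of 1.001 and 0.94 exceed that distance. Those of Akr1c18 (0.46 and 0.40) and Hsd11b1 (0.42 and 0.43) come close to it. For each of the 7 genes both standard errors exceed the distance of the nearest gene, so the order of the neighbours is not resolved.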

How the data were processed

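Messenger RNA from 3 libraries each of DPP4+, ICAM1+ and CD142+ cells was measured, and samples were grouped by the population in their labels. Per the submitters' processing notes, reads went through STAR 2.5.2a on mm10, and DESeq2 (version not named) in R 3.5.1 followed. Which annotation release and strand setting were used was not stated in the sources consulted. The deposited tables are 3 pairwise comparisons. Their column of means is a signal computed by the authors, size-factor-normalised counts averaged over the libraries, with no error. The log2 fold changes, standard errors, p-values and adjusted p-values are the authors' own comparison columns, deposited from DESeq2. Since no values per library were used, the report rests on these deposited columns and no model was refitted. The deposited Wald statistics, a score, were used only as a check. Of all rows, 4 name no gene (59.6% of the mean counts) and were left out, leaving 20655 genes. For 20612 of these the 3 fold changes close within 0.01, so they were read as 1 fit.

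The 7 genes, the gene lists, the markers and the tests were chosen with earlier results of these data known. A gene was called at a deposited adjusted p below 0.05. Fitted levels came from the mean and fold changes, and levels per kilobase from GENCODE M21 exon lengths for GRCm38. Intervals of 95% came from the standard errors and the normal distribution. Genes named were the 7, the sort genes, the Akr1c cluster, partner genes of the 7, up to 3 called genes with the largest absolute change and a mean reaching 100 per list and comparison (the 2 with the highest mean where fewer than 2 passed), and the 3 genes most like each of the 7. Srd5a1, Srd5a3, Hsd17b14, Fdxr, Cyp11a1, Cyp17a1, Gper1, Paqr6, Paqr9, Wnt4, Greb1, Fkbp5, Tsc22d3, Per1, Klf9 and Akr1cl lie outside that rule. So do the markers Pdgfra, Apod, Dcn, Col1a1, Col1a2 and Adipoq. A gene of the receptor list is not reported here and enters no list count or median. Promoters are from RefSeq (GRCm38.p6). Alternatives were other thresholds, other sets of genes for the adjustment, a minimum fold change, a Wald test with a null of 1 (log2) and re-centred fold changes. Scripts used Python 3.11.15, pandas 2.3.3 and scipy 1.17.1 and were tested on simulated data.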

Additional observations from a re-analysis of the deposited data

How the results depend on the processing

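The 4 calls per comparison held at adjusted p of 0.01 except for Nr3c2 in ICAM1+ against DPP4+ cells (adjusted p = 0.0111), and at 0.1 Pgr was added in CD142+ against DPP4+ cells (adjusted p = 0.0588). With p adjusted over the genes whose mean reached 100, 2 of the 7 were called in ICAM1+ against DPP4+ cells, since Hsd11b1 and Nr3c2 have lower means. When the absolute log2 fold change had to exceed 1 too, 2 were called (Akr1c14 and Akr1c18) in CD142+ against DPP4+ and in ICAM1+ against CD142+ cells, and Nr3c2 was lost in ICAM1+ against DPP4+ cells. In a Wald test with a null of 1 (log2) the counts were 2 for ICAM1+ against DPP4+ cells, 2 for CD142+ against DPP4+ cells and 1 for ICAM1+ against CD142+ cells, the last being Akr1c18. Re-centring on the median, which was -0.07, -0.05 and -0.02 among genes whose mean reached 100, changed none of the 4 calls in each comparison and turned the sign of Nr3c1 in ICAM1+ against DPP4+ cells, which did not pass (from -0.05 to 0.02). Over all genes, 4358, 3312 and 1434 were called in the order above, 2143, 1720 and 554 with the minimum fold change and 681, 549 and 66 in the test against 1. At adjusted p of 0.01, 950 were called in the last comparison. Adjusting over every gene with a p, or over genes whose mean reached 10, left the 4 calls in each comparison as they were. With a minimum mean of 10, 1 of the 3 genes most like Akr1c18, Hsd11b1 and Nr3c2 was shared, and 0 of 3 for Esr1. No paired analysis was possible because the tables hold no values per library, and leaving out replicates was not run for the same reason. Of the 7 genes Pgr had the lowest mean.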
